A study of Homo sapiens with 6 samples.

Results

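The mitosis genes described here are 30 genes of the G2 and M phases of the cell cycle, chosen by gene symbol from a list: each member has 1 row in the deposited table of 60675 genes, and all 30 were found. HCT116, the cells used, is a long-established line from a human colon carcinoma. The study compared cells carrying a stably expressed wild-type PHF5A (WT) with cells carrying stably expressed PHF5A K29Q, in which glutamine takes the place of a lysine. PHF5A belongs to the splicing complex SF3B, with which U2 recognises branch sites in introns, and glutamine often serves as a stand-in for acetylated lysine. Each group had 3 RNA libraries, WT 1 to 3 and K29Q 1 to 3. Both groups carried an introduced PHF5A, so neither is the unmodified parental line. The sources used here give no promoter, no statement on whether a stable line was 1 clone or a pool, and none on the endogenous PHF5A. They are also silent on whether libraries within a group were grown separately. The p-values set the difference between the groups against the spread among libraries of a group. That spread may be technical, so the p-values may not speak for separate cultures or clones.

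A dividing cell makes most of these transcripts late in its cycle and clears many of the proteins when mitosis ends. Cyclins A2 and B with CDK1 start mitosis, the Aurora and Polo kinases build the spindle, and the spindle checkpoint holds back the anaphase-promoting complex (APC/C) until every chromosome is attached. CDC20 then activates APC/C, securin and cyclin B are destroyed, sister chromatids part, and cytokinesis splits the cell. Much of this gene programme is under DREAM, B-MYB and FOXM1, which act through a promoter element called CHR, together with NF-Y, which binds CCAAT boxes. In colon tumours such genes are common markers of proliferation. RNA from a whole culture cannot tell fewer cells in G2 and M apart from less RNA per cell.

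Levels are FPKM, fragments scaled by transcript length and by library size. Depth was read from the most common value of FPKM times length among single-exon genes. If that value stands for 1 fragment, K29Q 3 was the shallowest library, at 33600000 fragments, and K29Q 2 the deepest, at 39990000. On that reading CENPA had the fewest fragments of the 30 genes, between 345 and 468 per library, which gives a counting error of up to 5.38%. The epithelial markers fit the cell line: EPCAM lay between 48.2 and 62.0 FPKM and KRT19 between 576 and 757, while VIL1, a marker of mature enterocytes, stayed at or under 0.181. Summed FPKM of 7 fibroblast markers was 4.52 to 5.40 in WT and 4.68 to 6.07 in K29Q, nearly all of it COL1A1, with DCN and LUM listed at 0. For 7 leukocyte markers the sums were 2.36 to 3.16 and 2.499 to 3.49, and the leukocyte gene PTPRC did not exceed 0.0027. WT 1 stood apart from its group. On the first principal component over all genes tested it lay at −4.72, beside K29Q 1 at −4.76, with WT 2 and WT 3 at 13.22 and 17.99.

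No mitosis gene passed the test between the groups. Long, AT-rich transcripts such as ASPM, CENPF, TOP2A and CENPE had ratios of mean FPKM, K29Q over WT, between 1.40 and 1.64, while CCNB1, CCNB2, PLK1, AURKB and CDC20 had ratios between 0.910 and 0.990. Fold changes here are differences in mean log2(FPKM + 1), K29Q minus WT, from limma. All 30 genes reached 1 FPKM in 3 or more libraries, the filter used, and were tested among 13261 genes. With Benjamini-Hochberg adjustment over those, 0 of 30 passed an adjusted p of 0.05, against 7 genes in all (0.0528%). Adjusted p among the 30 ran from 0.314 for ASPM to 0.989 for PTTG1. An unadjusted p under 0.05 was reached by 10 of 30, all of them with higher means in K29Q. Over all genes tested 12.5% reached that p, 7.65% with the higher mean in K29Q and 4.89% with the lower. The log2 fold change was above 0 for 21 members and below 0 for 9, with a median of 0.19. Over all genes tested 51.0% lay above 0 and the median was 0.0030. The 2 groups did not overlap for 3 genes that were higher in K29Q (ASPM, DLGAP5 and CENPA), where 8.80% of all genes did the same. They did not overlap for 2 genes that were lower (AURKB and CDC20), where the share over all genes was 9.00%.

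**Figure D1:**
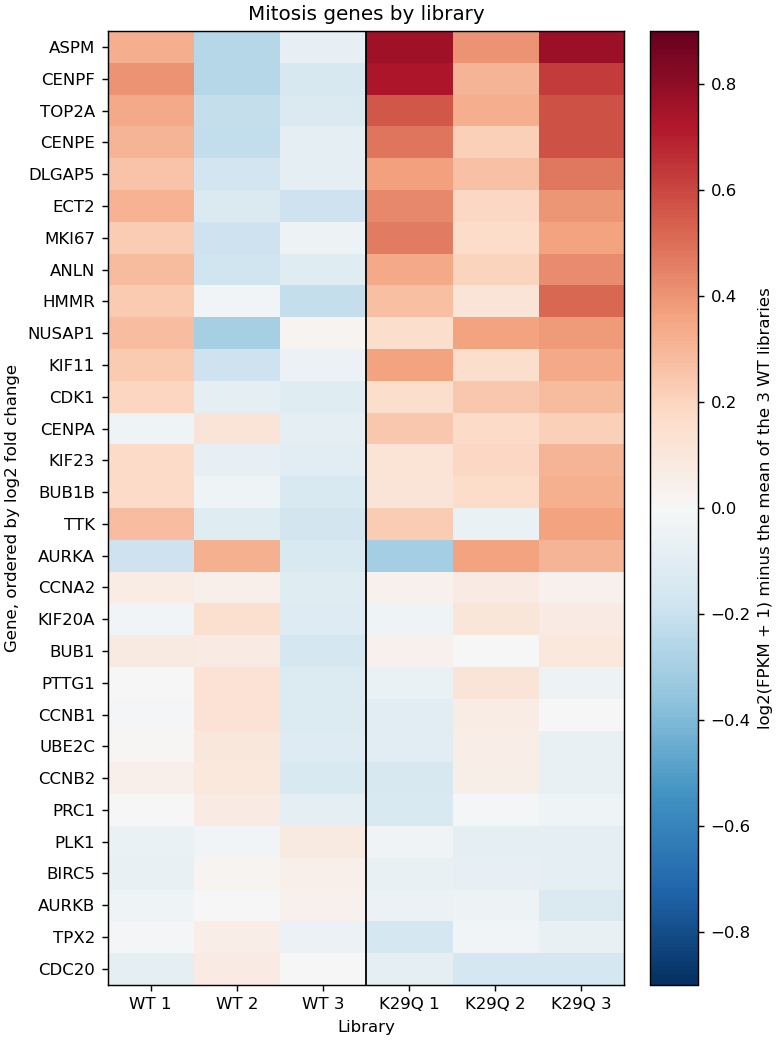
Each row is a mitosis gene, each column a library, and the colour is log2(FPKM + 1) minus the mean of the 3 WT libraries. In the upper rows WT 1 is shaded like the K29Q libraries, while WT 2 and WT 3 are mostly pale or blue, and from CCNA2 down all libraries are pale.

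Promoters are shown for 3 members with high ratios and for the cyclins and CDK1, so that the elements named above can be seen. Sequences are from RefSeq (GRCh38.p14), 5′ to 3′ on the gene's strand, with matches to CHR (TTTGAA or its reverse complement TTCAAA) and to the CCAAT box (CCAAT or ATTGG) in capitals. ASPM, TOP2A and CENPF were picked for display after their values were seen, and their stretches end before the first annotated exon. The ASPM stretch is chr1:197146695-197146919 (minus strand), the TOP2A stretch chr17:40417951-40418146 (minus strand) and the CENPF stretch chr1:214602945-214603194 (plus strand).
ASPM: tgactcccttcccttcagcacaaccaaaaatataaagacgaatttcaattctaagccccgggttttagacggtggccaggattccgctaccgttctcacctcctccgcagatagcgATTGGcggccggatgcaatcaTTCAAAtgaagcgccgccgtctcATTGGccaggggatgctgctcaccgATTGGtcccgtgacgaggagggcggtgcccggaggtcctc
TOP2A: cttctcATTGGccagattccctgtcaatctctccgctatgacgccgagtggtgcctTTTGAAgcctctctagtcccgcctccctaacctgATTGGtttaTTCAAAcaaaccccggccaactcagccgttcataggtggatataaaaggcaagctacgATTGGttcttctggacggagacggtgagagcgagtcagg
CENPF: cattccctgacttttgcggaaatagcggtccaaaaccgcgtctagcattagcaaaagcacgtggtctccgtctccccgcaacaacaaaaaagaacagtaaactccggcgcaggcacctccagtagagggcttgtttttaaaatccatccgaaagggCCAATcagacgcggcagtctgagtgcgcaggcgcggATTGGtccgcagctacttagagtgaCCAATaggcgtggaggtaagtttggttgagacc

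For the cyclins and CDK1 a window of 30 bases around a match is given, since annotated exons of other transcript forms reach into these promoters. The CCNB1 window is chr5:69167083-69167112, the CCNB2 window chr15:59105105-59105134 and the CDK1 window chr10:60778397-60778426, all on the plus strand, and the CCNA2 window is chr4:121823922-121823951 on the minus strand.
CCNB1: gccacgaacaggCCAATaaggagggagcag
CCNB2: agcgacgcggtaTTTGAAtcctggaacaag
CDK1: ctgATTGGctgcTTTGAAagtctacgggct
CCNA2: gcgagcgctttcATTGGtccatttcaatag

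Of the 30 members 25 had a promoter entry, which covers 250 bases before the annotated start and 50 after. The CHR letters were in 18 of those 25 (72.0%), against 18.2% of 27305 genes with an entry. CCAAT letters were in 22 of 25 (88.0%), against 39.7%, and both were in 16 (64.0%), against 8.4%. Among the 10 members with an unadjusted p under 0.05, 9 had CHR letters and 8 had CCAAT letters, and among the other 15 with an entry these numbers were 9 and 14. CENPE, whose ratio was 1.46, had neither in its window. The only CHR match of CENPF lay 40 bases after its start, outside the stretch shown. CCNB1 and CCNA2 had CCAAT letters but no CHR letters in their entries.

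MKI67 and TOP2A are the best-known proliferation markers of the list. TOP2A (ENSG00000131747), the topoisomerase that untangles sister chromatids and the target of etoposide, is a protein-coding gene of chromosome 17, at 40388516 to 40417950 (minus strand). All positions of genes are on GRCh38. Its FPKM was 35.2, 23.6 and 25.1 in WT 1 to 3 and 41.0, 34.8 and 41.4 in K29Q 1 to 3. WT 1 lay just above the lowest K29Q library, so the groups overlapped. The means were 28.0 ± 6.33 and 39.0 ± 3.72 (SD, n = 3 each), 0.48 apart as log2 fold change (SE 0.153, 95% confidence interval 0.12 to 0.85, limma, adjusted p = 0.365). MKI67, which encodes the Ki-67 protein that coats mitotic chromosomes, is on chromosome 10 from 128096659 to 128126385 (minus strand). It had 13.9, 10.2 and 11.4 FPKM in WT and 16.6, 13.3 and 15.4 in K29Q. Here too WT 1 fell among the K29Q values, and the log2 fold change was 0.33 (SE 0.125, limma, adjusted p = 0.389).

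The 3 centromere and kinetochore genes had the highest median log2 fold change of any role, 0.42, beside 0.41 for MKI67 and TOP2A. After the correction for GC content and length described below these medians were 0.25 and 0.31, so the order was reversed. CENPF (ENSG00000117724), a large protein of the outer kinetochore, is on chromosome 1 from 214603195 to 214664588 (plus strand). It had 18.4, 11.3 and 12.3 FPKM in WT 1 to 3 and 23.3, 17.1 and 21.7 in K29Q 1 to 3. The WT 1 value exceeded that of K29Q 2, and the log2 fold change was 0.55 (SE 0.19, limma, adjusted p = 0.373). CENPE (ENSG00000138778), the kinesin that carries chromosomes to the spindle equator, is on chromosome 4 from 103105806 to 103198409 (minus strand). It was the least abundant of the 30, at 3.48, 2.11 and 2.43 FPKM in WT and 4.07, 3.21 and 4.40 in K29Q. Its libraries stood in the same arrangement, with WT 1 between K29Q 2 and K29Q 1, and its log2 fold change was 0.42 (SE 0.155, limma, adjusted p = 0.387). CENPA, the histone H3 variant that marks the centromere, is on chromosome 2 from 26764289 to 26801067 (plus strand). It had 6.85, 7.73 and 6.60 FPKM in WT and 8.53, 8.06 and 8.33 in K29Q. This gene behaved differently across libraries, because WT 2 and not WT 1 was its highest WT library. The groups did not overlap, and the log2 fold change was 0.21 (SE 0.0727, limma, adjusted p = 0.374). Exons annotated to CENPA share 138 bases with SLC35F6, a neighbour of up to 15.97 FPKM on the same strand, so fragments may have been divided between them.

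Spindle motors and microtubule proteins all had log2 fold changes above 0 (5 of 5), and 3 of them reached an unadjusted p under 0.05. ASPM (ENSG00000066279), which focuses spindle poles and is known from inherited microcephaly, is on chromosome 1 from 197084128 to 197146694 (minus strand). Its FPKM was 8.05, 5.04 and 5.83 in WT 1 to 3 and 11.2, 8.53 and 11.3 in K29Q 1 to 3. Every K29Q library lay above every WT library, though WT 1 was close to K29Q 2. The means were 6.31 ± 1.56 and 10.3 ± 1.56 (SD, n = 3 each), and the log2 fold change, 0.64 with an SE of 0.168 and a 95% confidence interval from 0.25 to 1.04, was the highest of the 30 (limma, adjusted p = 0.314). DLGAP5, a microtubule stabiliser of the spindle on chromosome 14 from 55148112 to 55191678 (minus strand), had 22.9, 16.8 and 17.9 FPKM in WT. In K29Q it had 24.9, 23.0 and 26.8, so WT 1 stopped just short of the K29Q range. Its log2 fold change was 0.37 (SE 0.121, limma, adjusted p = 0.365). KIF11, the plus-end motor that pushes spindle poles apart, had 12.1, 8.75 and 9.71 FPKM in WT and 13.3, 11.4 and 13.1 in K29Q (log2 fold change 0.29, limma, adjusted p = 0.395). HMMR, a spindle protein also known as a hyaluronan receptor, had 12.1, 9.90 and 8.54 in WT and 12.3, 11.0 and 14.9 in K29Q (log2 fold change 0.30). NUSAP1, which bundles spindle microtubules, had 35.3, 23.4 and 29.5 in WT and 32.4, 37.5 and 38.0 in K29Q (log2 fold change 0.30). For these 3 genes WT 1 was the highest WT library and lay inside the K29Q range.

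**Figure D2:**
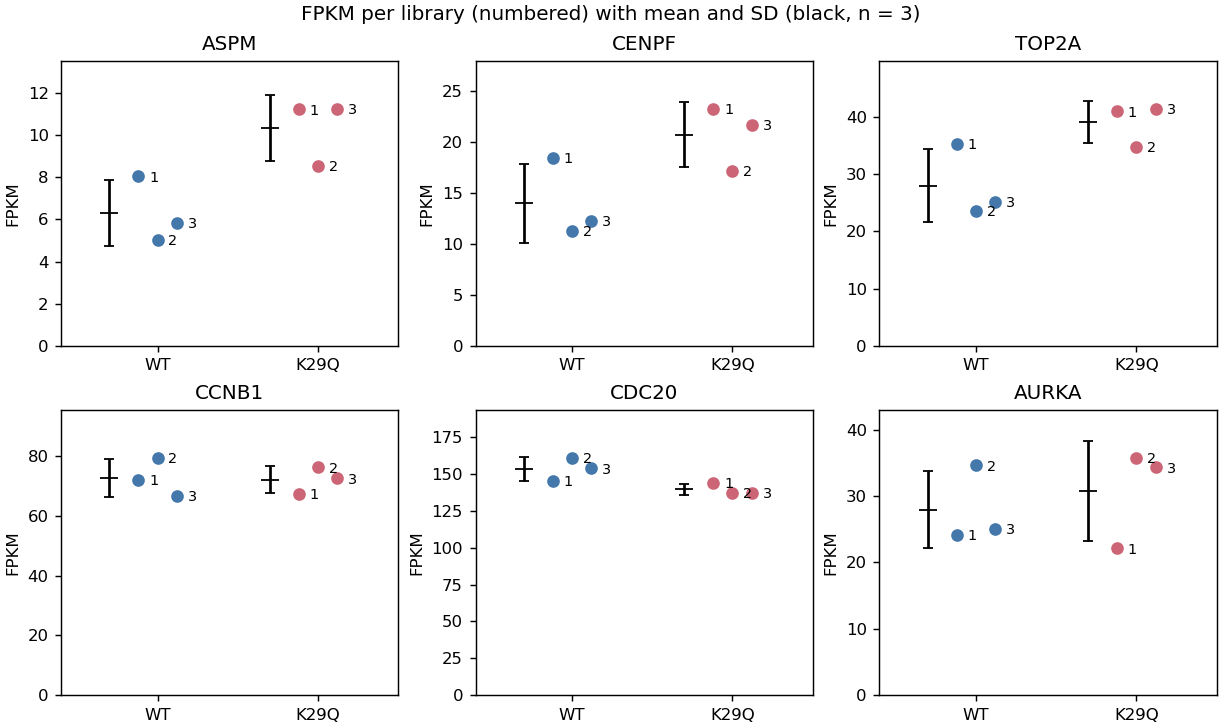
FPKM of 6 mitosis genes in each library, numbered 1 to 3, on axes that start at 0, with black marks for the group mean and SD (n = 3). ASPM, CENPF and TOP2A show WT 1 well above WT 2 and WT 3, CCNB1 and CDC20 vary little, and AURKA is split within both groups.

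The spindle checkpoint kinases had a median log2 fold change of 0.18 and 0 of 3 reached an unadjusted p under 0.05 (limma). BUB1B, also called BubR1, a part of the complex that inhibits APC/C, had 15.3, 13.1 and 12.2 FPKM in WT and 14.7, 15.3 and 17.1 in K29Q (log2 fold change 0.20). TTK, the Mps1 kinase that starts checkpoint signalling, had 8.95, 6.62 and 6.32 in WT and 8.62, 6.89 and 9.58 in K29Q (0.18). BUB1, which docks checkpoint proteins at kinetochores, had 19.6, 19.5 and 16.5 in WT and 18.9, 18.4 and 19.7 in K29Q (0.042). The groups overlapped for all 3, and for BUB1 WT 1 and WT 2 were within the K29Q range.

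Genes of cytokinesis were mixed. ECT2, which activates RhoA at the cleavage furrow, had 17.0, 12.2 and 11.7 FPKM in WT and 18.5, 15.4 and 18.1 in K29Q (log2 fold change 0.34, limma, adjusted p = 0.399). ANLN, the anillin scaffold of the contractile ring, had 31.1, 22.3 and 23.4 in WT and 32.3, 29.2 and 34.4 in K29Q (0.32, limma, adjusted p = 0.392). In both genes WT 1 sat above K29Q 2 and below K29Q 1. KIF23, the kinesin of the centralspindlin complex, had 10.9, 9.003 and 8.77 in WT and 10.5, 11.0 and 11.97 in K29Q (0.21). KIF20A, a kinesin that brings the chromosomal passenger complex to the midzone, had 22.0, 24.8 and 20.6 in WT and 21.7, 24.2 and 23.6 in K29Q (0.047). PRC1, which bundles midzone microtubules, had 27.6, 29.0 and 25.9 in WT and 24.9, 27.3 and 26.7 in K29Q (−0.060). For KIF20A and PRC1 the groups overlapped, with 95% confidence intervals of −0.15 to 0.25 for KIF20A and −0.22 to 0.10 for PRC1.

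The log2 fold changes of the cyclins that drive mitosis lay close to 0. CCNB1 (ENSG00000134057), cyclin B1, is on chromosome 5 from 69167010 to 69178245 (plus strand) and had 72.1, 79.5 and 66.7 FPKM in WT and 67.4, 76.2 and 72.6 in K29Q. Its log2 fold change was −0.012, with a 95% confidence interval of −0.21 to 0.19 (limma, adjusted p = 0.965). CCNB2, the B-type cyclin of the Golgi, had 29.5, 30.5 and 25.8 in WT and 25.8, 29.6 and 27.3 in K29Q (−0.051, interval −0.25 to 0.15). CCNA2, cyclin A2 of S and G2 phase, had 37.3, 36.7 and 32.8 in WT and 36.5, 37.5 and 36.6 in K29Q (0.050, interval −0.11 to 0.21). Intervals of this width do not show equal levels. CDK1, the kinase that these cyclins activate, is on chromosome 10 from 60778331 to 60794852 (plus strand). It had 23.3, 19.0 and 18.7 FPKM in WT and 22.7, 24.2 and 24.9 in K29Q, with WT 1 above K29Q 1. Its log2 fold change was 0.23 (SE 0.0947, limma, adjusted p = 0.394).

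Mitotic kinases and their Aurora partners had a median log2 fold change of −0.073, and 4 of 5 lay below 0. PLK1, the Polo kinase of mitotic entry, had 23.6, 24.3 and 26.2 FPKM in WT and 24.2, 23.1 and 23.1 in K29Q (−0.070, interval −0.22 to 0.079). AURKB, the kinase of the chromosomal passenger complex, had 31.9, 32.8 and 33.8 in WT and 31.6, 31.8 and 29.9 in K29Q (−0.075, limma, adjusted p = 0.604). Its groups did not overlap, but WT 1 and K29Q 2 were almost equal. BIRC5, survivin, of the same complex had 15.2, 16.3 and 16.5 in WT and 15.3, 15.2 and 15.1 in K29Q (−0.073). TPX2, which activates Aurora A on spindle microtubules, had 92.5, 97.1 and 89.9 in WT and 83.3, 91.6 and 88.9 in K29Q (−0.083). The groups overlapped for PLK1, BIRC5 and TPX2. AURKA, Aurora A itself, had the largest standard error of the 30, 0.209, at 24.1, 34.6 and 25.02 FPKM in WT and 22.1, 35.8 and 34.3 in K29Q. Each group held high and low libraries, and the interval of its log2 fold change of 0.12 ran from −0.37 to 0.62.

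Genes of anaphase onset included CDC20, the member with the highest FPKM. CDC20 (ENSG00000117399), which activates APC/C and is on chromosome 1 from 43358955 to 43363203 (plus strand), had 145, 161 and 154 FPKM in WT and 144, 137 and 137 in K29Q. Every K29Q library lay under every WT library, with K29Q 1 close to WT 1. The means were 153 ± 7.97 and 139.6 ± 3.93 (SD, n = 3 each), and the log2 fold change, −0.13 with an SE of 0.0614 and a 95% confidence interval from −0.28 to 0.011, was the lowest of the 30 (limma, adjusted p = 0.422). UBE2C, the ubiquitin-conjugating enzyme of APC/C, had 98.4, 105 and 90.4 in WT and 91.1, 102 and 93.6 in K29Q (−0.034). PTTG1, securin, the inhibitor of separase that APC/C marks for destruction, had 41.7, 45.8 and 38.2 in WT and 40.1, 45.4 and 40.5 in K29Q (0.0037). For UBE2C and PTTG1 WT 2 was the highest library of all 6 and WT 3 the lowest.

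The WT libraries differed among themselves. For 16 of 30 genes WT 2 and WT 3 were below every K29Q library, which held for 22.6% of all genes tested. WT 1 was the highest WT library for 17 genes (36.7% of all genes) and lay within the K29Q range for 23 (52.0% of all genes). Averaged over the 30 genes, log2(FPKM + 1) relative to the WT mean was 0.125 in WT 1, −0.035 in WT 2 and −0.089 in WT 3. The K29Q libraries had 0.153, 0.129 and 0.224, and WT 1 was nearly level with K29Q 2. For ASPM the ratio of WT 1 to the mean of WT 2 and WT 3 was 1.48, and for CENPF it was 1.57, against ratios between the groups of 1.64 and 1.48. TOP2A had ratios of 1.45 within WT and 1.40 between the groups. The ratio between the groups divides by a WT mean that includes WT 1, which lowers it where WT 1 is high. The ratio within WT leaves WT 1 out of its denominator. Set side by side, these ratios therefore cannot show which difference is larger. For CENPE the ratios were 1.53 within WT and 1.46 between the groups, and for ECT2 1.42 and 1.27. Without WT 1, limma gave 15 members an unadjusted p under 0.05, 14 higher and 1 lower in K29Q, and a median of 0.24. Over all genes tested in that fit 14.4% were higher and 6.07% lower at this p. Still 0 members had an adjusted p under 0.05 (limma, adjusted p = 0.0629 for TOP2A and adjusted p = 0.0664 for ASPM). Without WT 3 there was 1 member at that unadjusted p, higher in K29Q, and the median was 0.11, beside 4.45% higher and 4.01% lower over all genes.

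The column headers carry 2 identifiers of the kind sequencers give to a flow cell, called A and B here. K29Q 1, K29Q 2 and WT 2 had A, and K29Q 3, WT 1 and WT 3 had B. Within A the difference was above 0 for 17 of 30 genes with a median of 0.14, and within B for 23 with a median of 0.25. Over all genes tested the medians were 0.010 and 0.011. ASPM differed by 0.84 and 0.64 within A and B, and TOP2A by 0.66 and 0.46. CDC20 differed by −0.19 and −0.12. AURKA was −0.29 in A and 0.47 in B. These values rest on 1 WT library in A and 1 K29Q library in B.

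**Figure D3:**
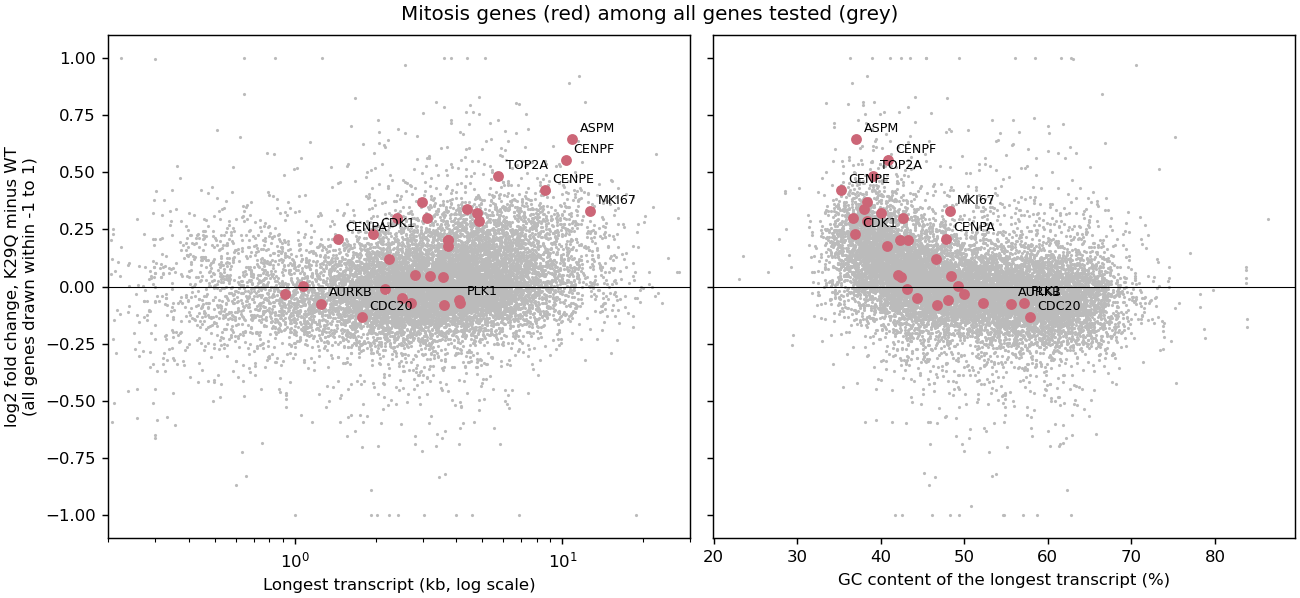
The log2 fold change of each mitosis gene (red) and of all genes tested with an annotated transcript (grey, drawn within −1 to 1) against the length (left, log axis) and the GC content (right) of its longest transcript. The red points climb with length and descend with GC content, from ASPM at 10.9 kb and 37.1% GC to CDC20 at 1.78 kb and 57.9% GC.

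The log2 fold changes of the members varied with the length and base composition of their transcripts. All 8 members with 40% GC or less in the longest transcript had log2 fold changes above 0, with a median of 0.35, and 6 of them had an unadjusted p under 0.05 (limma). Of all genes tested in that GC class 85.6% lay above 0 and 23.9% reached that p, 23.3% with the higher mean in K29Q. All 4 members above 50% GC (PLK1, AURKB, BIRC5 and CDC20) lay below 0, with a median of −0.074. They were all under 60% GC, and of all genes tested between 50% and 60% GC 36.7% lay above 0. The 4 members longer than 6 kb (MKI67, ASPM, CENPF and CENPE) each had an unadjusted p under 0.05 (limma), with a median of 0.49, where 18.4% of all genes of that length reached it. The 6 members of up to 2 kb had a median of −0.015, and 3 of them lay above 0. Of these 6, 2 (CDK1 and CENPA) had an unadjusted p under 0.05 (limma), where 11.9% of all genes of that length reached it. Across the 30 genes Pearson's r of the log2 fold change was −0.75 with GC content and 0.67 with log10 length, and GC content and log10 length were themselves related (r = −0.46). Genes are not independent replicates and share the same 6 libraries, so these values are descriptions.

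All genes tested gave the same signs. Over 13108 tested genes with an annotated transcript r was −0.36 with GC content and 0.15 with log10 length. The 1873 genes of up to 40% GC had a median log2 fold change of 0.15, the 4185 genes between 50% and 60% one of −0.038. Among genes of up to 40% GC the median deviation from the WT mean was 0.16 in WT 1, −0.066 in WT 2 and −0.090 in WT 3. The K29Q libraries had 0.12, 0.14 and 0.21, and WT 1 lay among them. The median GC content was 42.9% for the mitosis genes and 49.7% for all genes tested, while the median lengths were 3389 and 3247 nt.

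**Figure D4:**
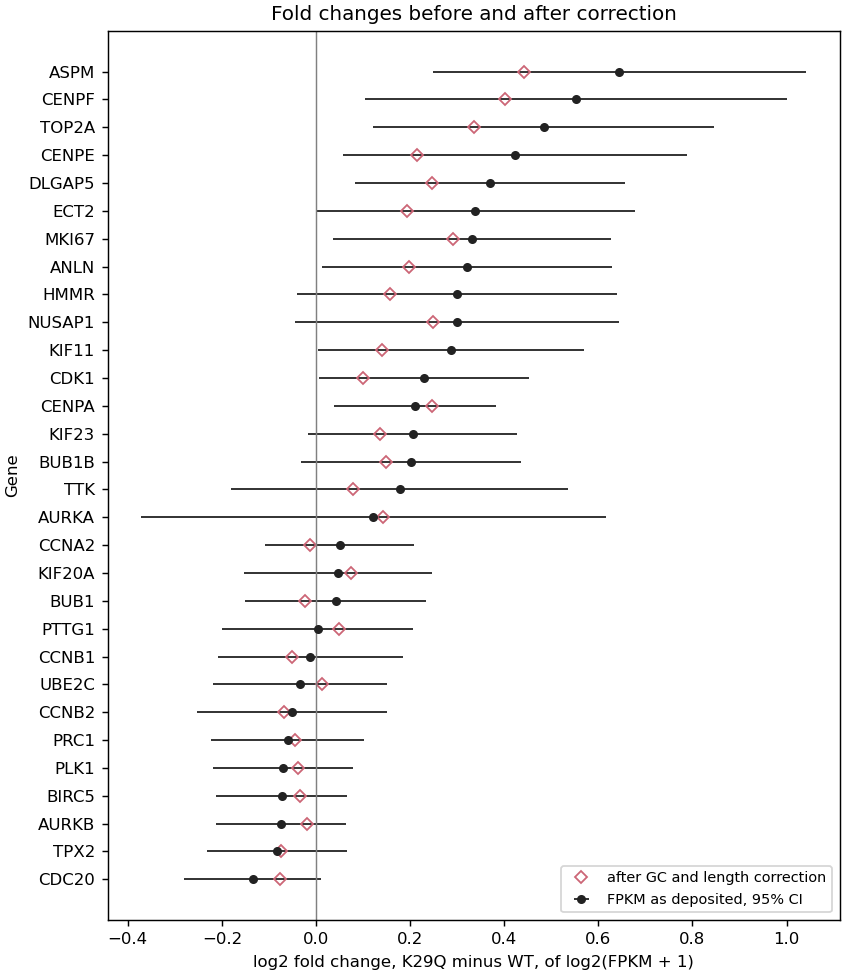
Black points are log2 fold changes of the mitosis genes with 95% confidence intervals from limma, and red diamonds are the values after correction for GC content and length in each library. Diamonds lie nearer 0 than the points for ASPM, CENPF, TOP2A and CENPE, and CENPA, MKI67 and NUSAP1 move little.

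With the dependence on GC content and length, fitted over all genes, taken out of each library, the members' median was 0.12, beside −0.0045 over all genes. ASPM went from 0.64 to 0.44, CENPF from 0.55 to 0.40, TOP2A from 0.48 to 0.34 and CENPE from 0.42 to 0.22. CENPA had 0.25 after correction and MKI67 0.29. No member passed with this correction either (limma, 0 of 30, smallest adjusted p 0.156 for CENPA), where 81 of all genes did (0.618%). An unadjusted p under 0.05 remained for 6 members (ASPM, CENPF, TOP2A, DLGAP5, MKI67 and CENPA), beside 15.1% of all genes. Across the 30 genes r with GC content was −0.57 after correction, and 0.58 with log10 length. Why low-GC transcripts differed between libraries was not tested.

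Other genes of mitosis were read from 6 lists of 120 genes, all of them measured. Over all 120 the log2 fold change was above 0 for 73 and below 0 for 47, with a median of 0.040 (0.0086 after correction), and 0 had an adjusted p under 0.05 (limma). An unadjusted p under 0.05 was reached by 14 of 120 with the higher mean in K29Q and by 4 with the lower, beside the 7.65% and 4.89% of all genes tested. Cohesin, condensin and separase genes, which hold and shape chromosomes, had the highest median of the 6 lists, 0.22, and 13 of 21 above 0. Of these 21, 7 had an unadjusted p under 0.05 (limma), all higher in K29Q, beside 7.65% of all genes. SMC2, a condensin core subunit, had 8.49, 5.95 and 5.95 FPKM in WT and 9.90, 9.11 and 9.81 in K29Q (log2 fold change 0.46, limma, adjusted p = 0.325). STAG1, a cohesin subunit, had 4.65, 3.22 and 3.54 in WT and 5.44, 4.61 and 5.90 in K29Q (0.40, limma, adjusted p = 0.365). WT 1 was again the highest WT library for both, and the median of the list after correction was 0.055. This list also had the longest transcripts, with a median of 5539 nt.

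Spindle and cytokinesis partners had 12 of 20 above 0 and a median of 0.032, and 4 had an unadjusted p under 0.05 (limma), all higher in K29Q, beside 7.65% of all genes. KIF14, a motor of cytokinesis, had 7.66, 4.93 and 5.74 FPKM in WT and 8.74, 7.37 and 9.02 in K29Q (0.41, limma, adjusted p = 0.379). KIF20B, a relative of KIF20A, had 6.09, 3.82 and 4.26 in WT and 7.10, 5.54 and 7.52 in K29Q (0.44, limma, adjusted p = 0.388). Both transcripts are longer than 6 kb and their WT 1 values were inside the K29Q range.

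Kinetochore and checkpoint partners had 21 of 33 above 0 and a median of 0.045. SPC24, of the NDC80 complex that grips microtubules, had 9.77, 9.56 and 9.29 FPKM in WT and 7.26, 7.70 and 8.31 in K29Q, with no overlap (−0.27, limma, adjusted p = 0.287). KNL1 (CASC5 in the table), the scaffold on which BUB1 docks, had 4.31, 2.85 and 3.28 in WT and 4.31, 4.04 and 5.04 in K29Q (0.30, limma, adjusted p = 0.412). SPC24 and KNL1 belong to the same kinetochore network and had opposite signs, and their transcripts had GC contents of 53.4% and 38.1%. After GC and length correction their log2 fold changes were −0.23 and 0.11, still of opposite sign.

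APC/C subunits and inhibitors had 9 of 17 above 0 and a median of 0.012. ANAPC15, which helps APC/C to shed the checkpoint complex, had 6.87, 6.37 and 5.96 FPKM in WT and 4.25, 4.12 and 4.57 in K29Q. All K29Q libraries lay below all WT libraries, with a ratio of 0.674 (log2 fold change −0.48, SE 0.0728, limma, adjusted p = 0.1). After GC and length correction it was −0.43. CDC27, an APC/C subunit that binds CDC20, had 17.6, 13.2 and 12.3 in WT and 18.4, 16.4 and 19.0 in K29Q (0.31, limma, adjusted p = 0.397).

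Genes of mitotic entry and exit control had 8 of 15 above 0 and a median of 0.011. NEK2, a kinase that separates centrosomes, had 18.6, 16.8 and 16.2 FPKM in WT and 20.2, 19.5 and 20.6 in K29Q (0.21, limma, adjusted p = 0.365). PKMYT1, which inhibits CDK1, had 13.1, 12.01 and 15.3 in WT and 12.6, 9.59 and 10.2 in K29Q (−0.30, limma, adjusted p = 0.394). NEK2 did not overlap between the groups and PKMYT1 did. The transcription factors of the G2/M programme had 10 of 14 above 0 and a median of 0.041. E2F4, of the DREAM complex, had 17.2, 17.1 and 18.2 in WT and 16.1, 14.6 and 15.0 in K29Q (−0.19, limma, adjusted p = 0.368). LIN52, another DREAM subunit, had 2.29, 1.60 and 1.18 in WT and 3.56, 2.41 and 2.502 in K29Q (0.51, limma, adjusted p = 0.369). Neither gene overlapped between the groups, and they lay on opposite sides of 0.

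**Figure D5:**
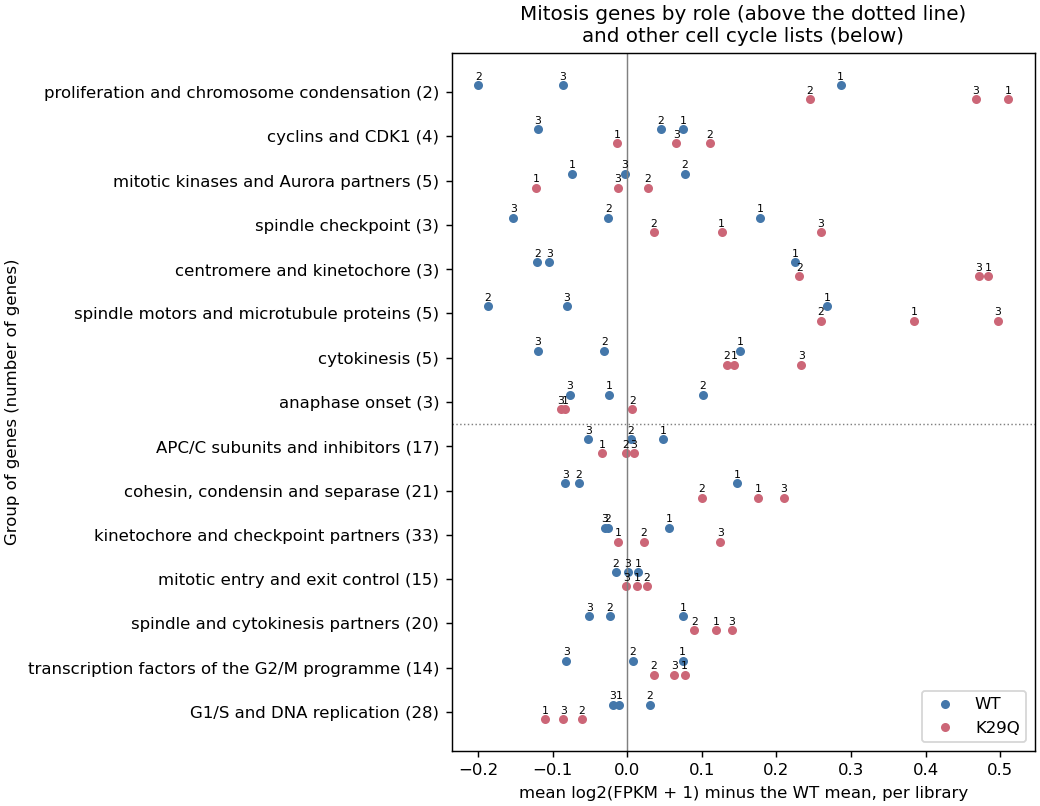
Mean log2(FPKM + 1) relative to the WT mean in each library (numbered) for the mitosis genes by role, above the dotted line, and for other cell cycle lists, below it, with the number of genes in brackets. WT 1 lies well above the other WT libraries in the first, spindle checkpoint, centromere, spindle motor and cytokinesis roles and in the cohesin list. The G1/S and replication list is the one list with every K29Q library below every WT library.

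Genes of G1/S and DNA replication, which are expressed earlier in the cycle, had values on the other side of 0. Of 28 genes 3 lay above 0 and 25 below, with a median of −0.099, where the mitosis genes had 21 of 30 above 0 and 0.19. Their median after GC and length correction was −0.10. CDT1, a licensing factor with a GC content of 64.9%, had 33.7, 36.0 and 39.7 FPKM in WT and 33.8, 27.9 and 28.8 in K29Q (−0.27, limma, adjusted p = 0.38). POLA1, the catalytic subunit of DNA polymerase alpha, had 5.26, 4.45 and 4.21 in WT and 5.33, 5.44 and 5.93 in K29Q (0.22, limma, adjusted p = 0.389). After GC and length correction the log2 fold change was −0.22 for CDT1 and 0.14 for POLA1. Of these genes 0 had an adjusted p under 0.05, and 5 of 28 had an unadjusted p under 0.05, 4 of them lower in K29Q (limma), beside 12.5% of all genes tested and 4.89% lower. Whether the mitosis and replication lists differ from each other was not tested.

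Read assignment could blur a few members. Exons of 10 of the 30 genes overlap an exon of another annotated gene, and the sources used here do not say whether counting used strand. The largest overlaps were on the same strand: PRC1 shares 3181 bases with the protein-coding model AC068831.7 and NUSAP1 shares 1787 with AC087721.2, and no value of either model was used here. CCNA2 shares 254 bases with EXOSC9 (up to 11.2 FPKM), on the opposite strand. KIF20A shares 132 bases with BRD8 (up to 9.03 FPKM) and 68 with CDC23, also on the opposite strand. BUB1B shares 457 bases with the read-through model BUB1B-PAK6 (up to 2.06 FPKM). Pseudogenes named after 6 members had 9 entries, none above 0.279 FPKM.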

How the data were processed

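Total RNA of 6 HCT116 libraries (3 WT, 3 K29Q) was sequenced. The authors deposited FPKM values, 1 for each gene in each library. The submitters' processing notes name HISAT2 2.1.0, StringTie and the build GRCh38. The sources used here give no StringTie version, annotation release or settings. FPKM values are not counts, so no count test was run. Depth was estimated from the most common value of FPKM times length among single-exon genes longer than 600 nt, taken as 1 fragment.

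Genes that reached 1 FPKM in 3 or more libraries (13261) were fitted as log2(FPKM + 1) with limma 3.58.1 in R 4.3.3, with an intensity trend and the group as the only term. P-values are two-sided, and Benjamini-Hochberg adjustment ran over all genes tested with a threshold of 0.05. The log2(FPKM + 1) scale understates fold changes of low genes. Length, GC content (longest transcript) and positions came from GENCODE 29 on GRCh38, promoters from RefSeq. For the correction, each library's deviation from the gene mean was fitted on splines of GC content and log10 length (5 degrees of freedom each) and the trend subtracted.

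The mitosis genes and all lists were chosen with earlier results of these data known. All 30 members are named. Up to 2 genes with the smallest p are named from each other list. AC068831.7, AC087721.2, BRD8, CDC23, EXOSC9, SLC35F6 and BUB1B-PAK6 were named for their overlap. Libraries were not duplicates: correlations between them ran from 0.978 to 0.987.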

Additional observations from a re-analysis of the deposited data

How the results depend on the processing

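No member had an adjusted p under 0.05 as reported or under any alternative run (limma). These were a pseudocount of 0.1, quantile normalization, no expression filter, a filter at a mean of 5 FPKM (which left out CENPE), the replicate number as a block, a flow cell term, the GC and length correction alone or with either term, and each library left out. GC correction alone and length correction alone were added after seeing the data. Genes past the threshold numbered 7, and 13 with quantile normalization, 2 with no filter, 4 with a flow cell term, 81 with GC and length correction, 72 with GC correction alone and 5 to 20 with a library left out. Members at an unadjusted p under 0.05 numbered 10, beside 12.5% of all genes tested. With GC and length correction they numbered 6 (15.1% of all genes). They numbered 10 when the replicate block was added (15.1%) and 11 when the flow cell term was added (15.2%). With the flow cell term alone there were 13 (12.7%). With a library left out they ran from 1 without WT 3 (8.46% of all genes) to 15 without WT 1 (20.5%). There were 2 without WT 2 (7.19%), 2 without K29Q 3 (6.52%) and 4 without K29Q 1 (9.59%). The members' median of 0.19 ran from 0.11 to 0.24 with a library left out and was 0.097 with GC correction alone.

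Correlations of the deviations of same-numbered libraries were −0.14, 0.18 and −0.16 for numbers 1, 2 and 3. With 3 libraries a group these values cannot show whether the numbers pair the libraries. With the replicate block 3 genes passed, and 1 when GC and length correction was added.

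The sign of 6 members near 0 changed. CCNB1 was 0.039 with quantile normalization, 0.0078 with length correction alone and −0.072 to 0.053 with a library left out. UBE2C was 0.0083 with quantile normalization, 0.013 with GC and length correction, with or without the block, and −0.091 to 0.018 with a library left out. PTTG1 was −0.040 with a flow cell term and −0.059 to 0.068 with a library left out. CCNA2 and BUB1 were −0.013 and −0.023 with GC and length correction, with or without the block, −0.035 and −0.039 with the flow cell term added, and −0.033 and −0.034 with GC correction alone. With a library left out CCNA2 ran from −0.0058 to 0.085, BUB1 from −0.036 to 0.084 and KIF20A from −0.012 to 0.12. The cause was not tested. With 3 libraries a group the intervals are wide, and counting error is not negligible for every member. For CENPA it was up to 5.38%, in its library with the fewest fragments. That is more than the spread within K29Q (8.31 ± 0.234 FPKM) and less than the spread within WT (7.06 ± 0.595 FPKM).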
